A study of Mus musculus with 6 samples.

Results

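The mitochondrial ribosomal protein genes measured here are the 78 of 30803 listed genes whose symbol is Mrpl or Mrps followed by a number and at most 1 letter. They comprise 49 genes named for the large subunit (Mrpl) and 29 named for the small subunit (Mrps), all annotated as protein-coding and spread over 17 chromosomes. Cells labelled as hematopoietic stem cells were sorted from the bone marrow of wild-type (WT) mice at 5 months into a fraction with low (MHCII-lo) and a fraction with high (MHCII-hi) MHC class II, the surface molecule that presents peptides to helper T cells. Each fraction gave 3 poly(A) RNA-seq libraries (n = 3 per group throughout). The titles of all libraries begin with Ctrl, and the labels name no transgene or treatment in either group. The gate that set the 2 fractions apart is not described further in the sources used here. Levels are read as FPKM, fragments per kilobase of transcript after scaling by library size; the unit was inferred, and read depth is unknown.

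The mitochondrial ribosome (mitoribosome) translates the few mRNAs encoded by mitochondrial DNA, which specify core subunits of the respiratory chain and of the ATP synthase. Its ribosomal RNAs are transcribed inside the organelle, whereas its proteins are encoded by nuclear genes, made in the cytosol and imported, so that assembly needs products of both genomes. Some of its proteins descend from the bacterial ribosome and others were added in the mitochondrial lineage. Resting hematopoietic stem cells are known for a low rate of protein synthesis and for relying little on respiration.

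In MHCII-hi, 66 of the 78 genes (84.6%) were lower than in MHCII-lo, 0 were higher and 12 did not pass the test (limma on log2(FPKM + 1), Benjamini-Hochberg adjusted p under 0.05 over 12295 tested genes). Over all tested genes the same test called 40.5% lower and 27.2% higher. At an unadjusted p under 0.05, 68 of the genes were lower and 1, Mrpl40, was higher. All 78 averaged 1 FPKM or more across the 6 libraries, the minimum for testing. The median change was -0.44 on the log2 scale, beside -0.08 over all tested genes. Every MHCII-hi library lay below every MHCII-lo library for 68 of the genes, against 43.3% of all tested genes. The reverse held for 1, Mrpl4, against 29.6% of all tested genes, and for the other 9 the groups overlapped. A called fall of at least 1 on the log2(FPKM + 1) scale was seen for 2 members, Mrps18c and Mrps14, and for 1.46% of all tested genes. By mean FPKM, Mrpl53, Mrpl33 and Mrpl44 were also 2.99-, 2.08- and 2.06-fold lower. After median-of-ratios scaling, which moves the median of all genes to -0.0029 and evens the split of all called genes from 3348 higher and 4982 lower to 4090 higher and 4001 lower, 36 Mrpl and 21 Mrps genes were lower and 2 Mrpl genes, Mrpl4 and Mrpl40, were higher.

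**Figure D1:**
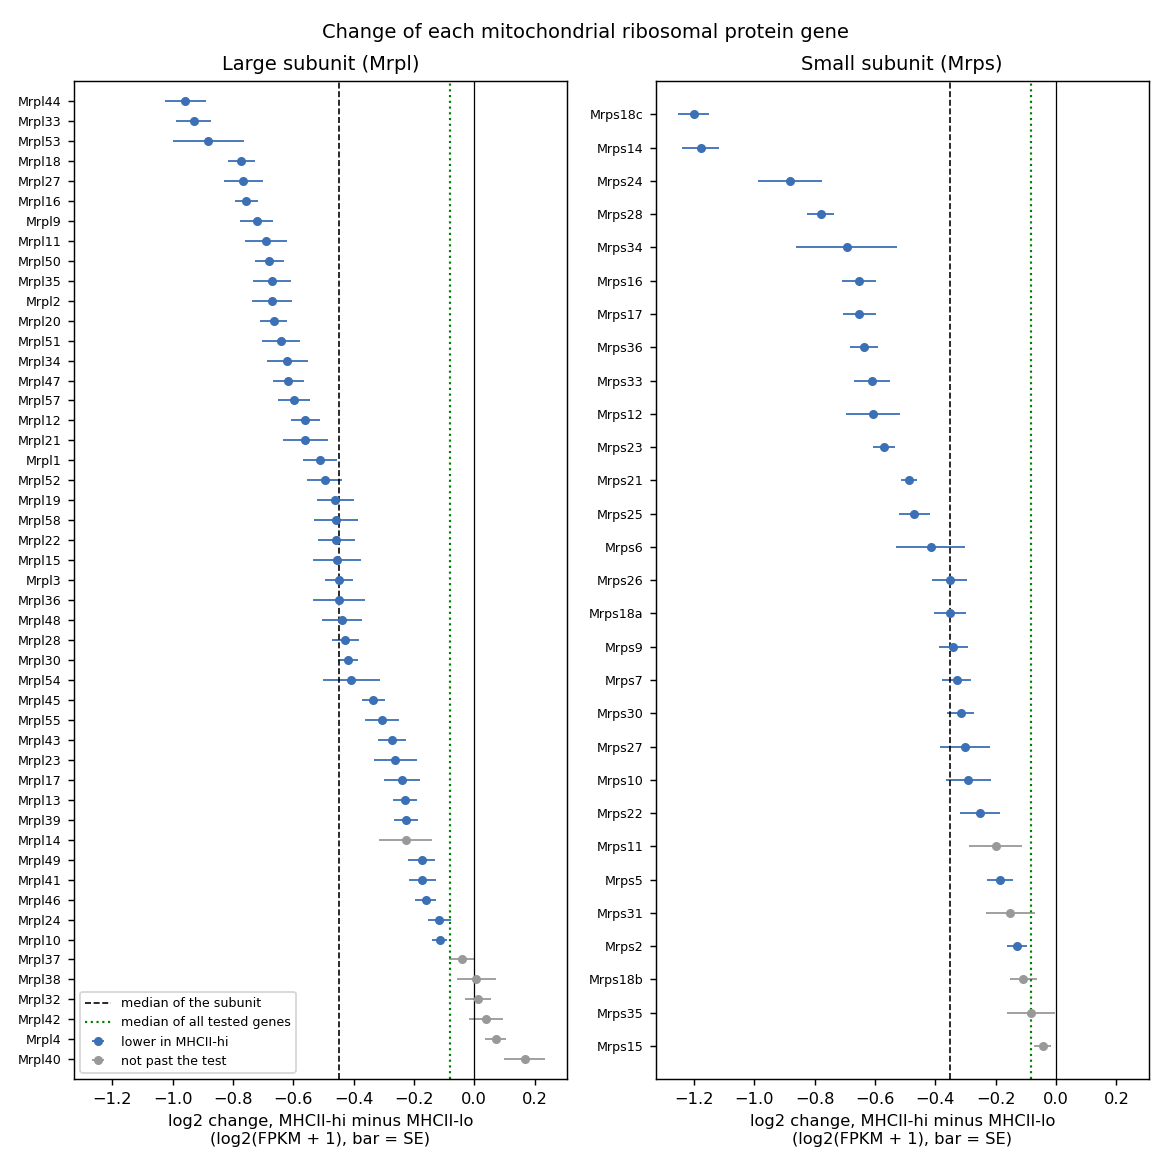
Change of each of the 78 genes between MHCII-lo and MHCII-hi on the log2(FPKM + 1) scale, with the standard error as a bar, for the large subunit (left) and the small subunit (right). Blue points passed the test as lower; the grey points did not pass, and the largest falls are those of Mrps18c (-1.20) and Mrps14 (-1.18).

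Whether the 3 libraries of a group are separate animals is not in the labels, and the p-values measure only the spread between these libraries. In bulk samples, fewer cells of a type that is rich in these transcripts and less of the transcript per cell cannot be told apart. Many markers of other cell types differed between the fractions, beside 27.2% higher and 40.5% lower over all tested genes. The B and plasma cell list and the erythroid list each moved in a single direction. The neutrophil, monocyte and macrophage, and T and NK cell lists were mixed. The 12 B and plasma cell markers summed to 397 to 456 FPKM in MHCII-lo, against 8051 to 8194 in MHCII-hi, and all 12 were higher. Neutrophil markers summed to 16392 to 16469 and 21245 to 21527 FPKM (7 of 12 higher, 4 lower), and erythroid markers to 999 to 1025 and 696 to 721 FPKM (9 of 10 lower). Monocyte and macrophage markers summed to 362 to 363 and 217 to 222 FPKM (2 of 8 higher, 5 lower), and T and NK cell markers to 185 to 190 and 177 to 185 FPKM (5 of 9 higher, 3 lower). Of 16 stem cell markers, 10 reached the expression minimum (7 higher, 1 lower), while Slamf1, Procr, Tek, Mecom, Fgd5 and Ctnnal1 did not; the 16 summed to 175 to 177 and 182 to 189 FPKM. No marker was at 0 in all 6 libraries. Immunoglobulin segments took 0.415% of the summed FPKM in MHCII-lo, against 8.30% in MHCII-hi. After rescaling without these segments, 42 Mrpl and 24 Mrps genes were lower, with medians of -0.45 and -0.36. The part of the marker and immunoglobulin differences in the members' change was not tested.

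Genes of both subunits were lower in MHCII-hi. Of the 49 Mrpl genes, 42 were lower, with a median change of -0.45 and a range of -0.96 to 0.17. Of the 29 Mrps genes, 24 were lower, with a median of -0.35 and a range of -1.20 to -0.04. No Mrps gene had a positive change, and 5 Mrpl genes did (Mrpl38, Mrpl32, Mrpl42, Mrpl4 and Mrpl40).

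Summed over its genes, the large subunit stood at 621, 629 and 628 FPKM in the 3 MHCII-lo libraries and at 457, 460 and 460 FPKM in the 3 MHCII-hi libraries. The small subunit stood at 332, 326 and 327 FPKM and at 216, 224 and 229 FPKM. Neither subunit's groups came near each other. The ratio of the group means was 0.733 for the large subunit (626 ± 3.98 to 459 ± 1.74 FPKM, mean ± SD) and 0.679 for the small subunit (328 ± 3.15 to 223 ± 6.85 FPKM). By the sums the small subunit therefore fell further, whereas by the median gene the large subunit did. The order of the medians is not stable: with subunits limited to genes averaging at least 5 FPKM the medians were -0.45 for the large and -0.49 for the small subunit, and with members overlapping no other gene they were -0.42 and -0.53.

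The large-to-small ratio of summed FPKM was 1.87, 1.93 and 1.92 in MHCII-lo, against 2.12, 2.05 and 2.01 in MHCII-hi. All MHCII-hi libraries were above all MHCII-lo libraries. The separation depended on a single gene. Without Mrps18c, one of the most abundant small subunit transcripts, the ratio was 2.09, 2.15 and 2.12 in MHCII-lo, against 2.26, 2.18 and 2.14 in MHCII-hi, with overlap of the groups. The small subunit's sum without it went from 295 to 209 FPKM, a ratio of 0.709. No test was made of the difference between the subunits, since the sums run over chosen genes. Together the 78 genes took 0.311% ± 0.000657 of the summed FPKM in MHCII-lo, against 0.204% ± 0.00251 in MHCII-hi (SD).

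**Figure D2:**
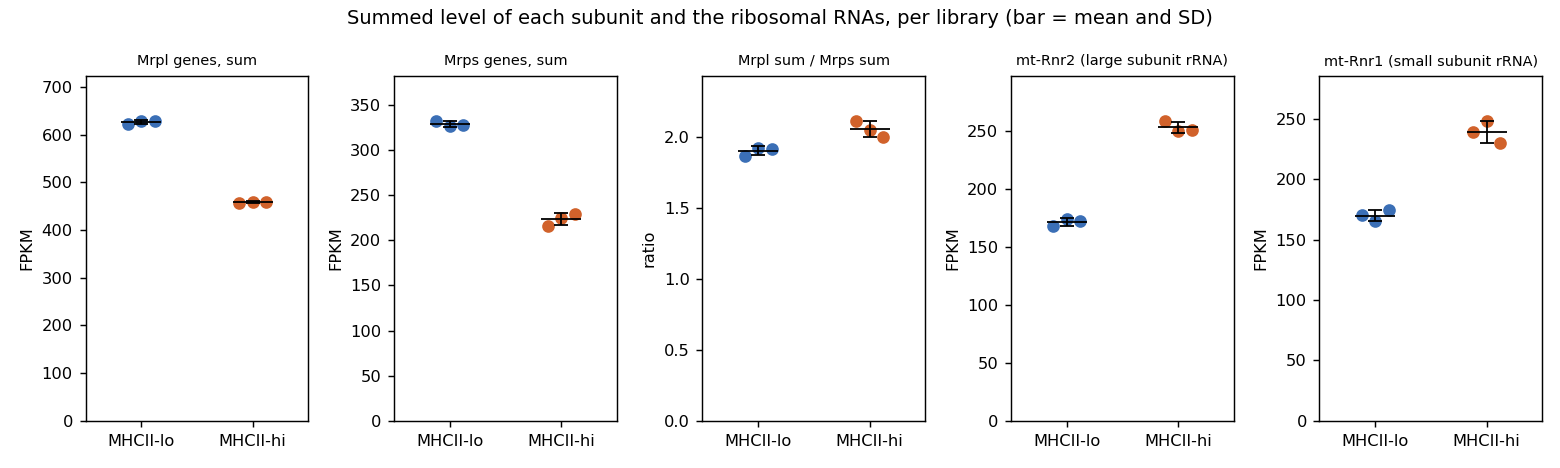
Summed FPKM of the 49 Mrpl and the 29 Mrps genes, their ratio, and the FPKM of the mitochondrial ribosomal RNAs in each of the 6 libraries, with mean and SD as bars. Both sums of Mrpl and Mrps mRNA are lower in all 3 MHCII-hi libraries, and both ribosomal RNAs are higher.

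Symbols and positions in the ribosome do not coincide for a few genes. Mrps30 and Mrps18a are named for the small subunit but sit in the large subunit in structures of the mammalian mitoribosome, and Mrps36 has since been assigned to the 2-oxoglutarate dehydrogenase complex. Placed that way, 44 of 51 large subunit genes and 21 of 26 small subunit genes were lower, with medians of -0.45 and -0.38. The ratios of summed FPKM were 0.733 and 0.679, equal to 3 digits to those by symbol. Mrps30 averaged 6.28 ± 0.205 FPKM in MHCII-lo, against 4.85 ± 0.191 in MHCII-hi, a change of -0.32 ± 0.04 (SE; limma adjusted p = 0.000676). Mrps36 averaged 14.2 ± 0.506 and 8.76 ± 0.484 FPKM, a change of -0.64 ± 0.05 (limma adjusted p = 3.13e-05). Both genes fell, as did Mrps18a, described with its relatives.

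On the log2(FPKM + 1) scale the largest falls were those of 2 small subunit genes. Mrps18c (ENSMUSG00000016833.14, chr5:100798627-100804471, GRCm38) is the homolog that keeps the bacterial family name among 3 mammalian relatives of one bacterial small subunit protein. It stood at 34.1, 33.6 and 31.3 FPKM in the MHCII-lo libraries and at 13.2, 13.5 and 14.8 FPKM in the MHCII-hi libraries. The groups were widely separated, and the gene, level with Mrps21 at the top of the Mrps genes in MHCII-lo, was well below it in MHCII-hi. Its change was -1.20 ± 0.05 (SE; limma adjusted p = 2.4e-06), a mean level 2.39-fold lower. Mrps14 (ENSMUSG00000058267.13, chr1:160195215-160202170), a homolog of a bacterial small subunit protein, stood at 12.3, 11.5 and 12.1 FPKM in MHCII-lo and at 4.24, 4.94 and 5.04 FPKM in MHCII-hi. Its change was -1.18 ± 0.06 (SE; limma adjusted p = 6.14e-06), 2.52-fold lower by mean level and with no overlap. Mrps14 overlaps no other annotated gene, while Mrps18c shares its strand with the predicted gene Gm43511 over part of its span.

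The 3 relatives of the bacterial protein did not move alike. Mrps18a (chr17:46110986-46128910) stood at 5.56, 4.96 and 5.31 FPKM in MHCII-lo and at 4.13, 3.75 and 3.88 in MHCII-hi. Its change was -0.35 ± 0.05 (SE; limma adjusted p = 0.00112). Mrps18b (chr17:35910379-35916389) stood at 8.58, 8.70 and 9.44 FPKM and at 8.34, 7.98 and 8.24 FPKM, a change of -0.11 ± 0.04 (SE) that did not pass (limma adjusted p = 0.0651), although its groups did not overlap. So the one that keeps the bacterial name had the largest estimate and Mrps18b the smallest; the differences among the 3 changes were not tested.

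Other small subunit genes with large falls were Mrps24, Mrps28, Mrps34 and Mrps16. Mrps24, the relative of a bacterial protein at the mRNA entry of the small subunit, stood at 14.3, 12.1 and 13.8 FPKM in MHCII-lo and at 5.73, 7.78 and 6.97 FPKM in MHCII-hi (-0.88 ± 0.11, SE; limma adjusted p = 0.000329). Mrps28 averaged 17.0 ± 0.700 FPKM and 9.49 ± 0.433 FPKM (-0.78 ± 0.05, SE; limma adjusted p = 9.85e-06). Mrps24 shares its strand with Urgcp over part of its span, and Mrps28 overlaps predicted genes on both strands. Mrps34 overlaps Nme3 on its own strand and Mapk8ip3 on the opposite strand. Mrps34 and Mrps16 are needed for a stable small subunit, and mutations in either cause respiratory chain disease in patients. Mrps34 stood at 8.34, 7.11 and 9.26 FPKM in MHCII-lo and at 3.72, 4.34 and 6.28 FPKM in MHCII-hi. Its change had the largest standard error of all 78 genes, and its highest MHCII-hi library came close to its lowest MHCII-lo library (-0.69 ± 0.17, SE; limma adjusted p = 0.00879). Mrps16, with no overlapping gene, averaged 7.70 ± 0.238 and 4.54 ± 0.379 FPKM (-0.65 ± 0.06, SE; limma adjusted p = 7.08e-05).

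Among the abundant small subunit genes, Mrps21 averaged 32.9 ± 0.777 FPKM in MHCII-lo, against 23.2 ± 0.379 in MHCII-hi (-0.49 ± 0.03, SE; limma adjusted p = 8.64e-06). Mrps15, the relative of a bacterial protein that binds the small subunit's ribosomal RNA early in assembly, stood at 21.4, 22.4 and 22.1 FPKM and at 21.0, 21.4 and 21.3 FPKM. Its groups overlapped, and its change of -0.04 ± 0.03 did not pass (SE; limma adjusted p = 0.197). In MHCII-hi, Mrps15 and Mrps21 were thus both above Mrps18c, which had been level with Mrps21 in MHCII-lo. Mrps35 averaged 2.80 ± 0.178 and 2.59 ± 0.327 FPKM, also with overlap (-0.08 ± 0.08, SE; limma adjusted p = 0.381). The remaining Mrps genes past the test had changes between -0.65 (Mrps17) and -0.13 (Mrps2), and Mrps11 and Mrps31 did not pass.

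**Figure D3:**
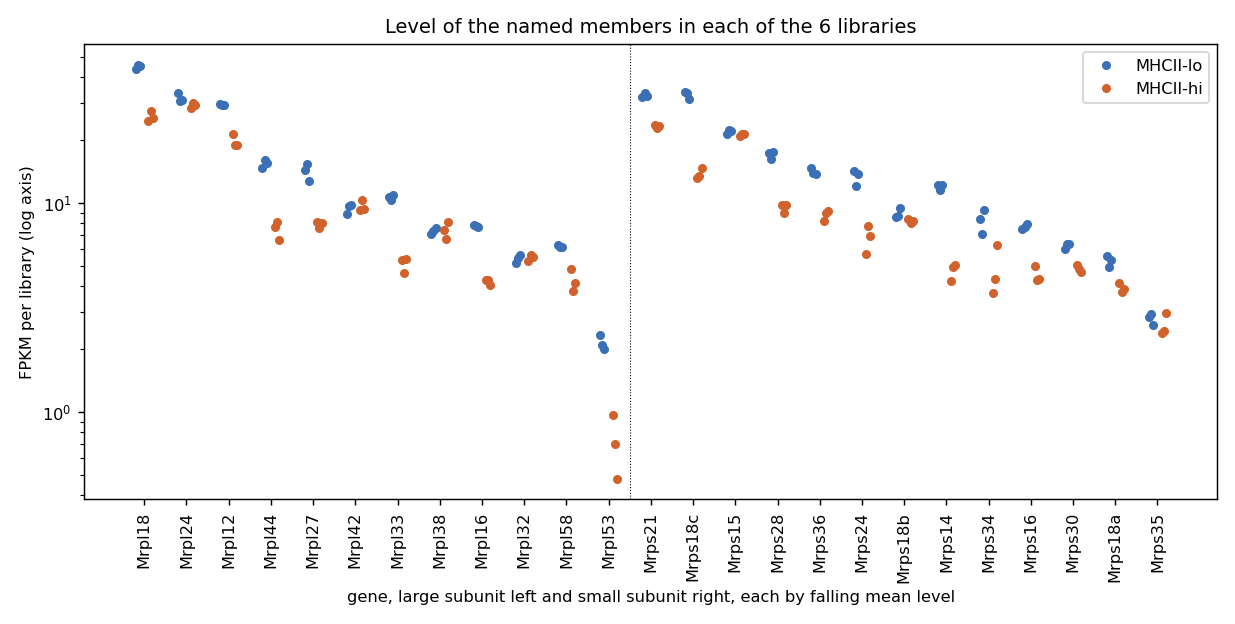
FPKM of the named large and small subunit genes in each of the 3 MHCII-lo (blue) and 3 MHCII-hi (orange) libraries on a log axis, ordered by mean level within each subunit. Mrps18c falls from beside Mrps21 to below Mrps15, while Mrps15, Mrps35, Mrpl32, Mrpl38 and Mrpl42 overlap between the groups.

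In the large subunit the largest falls were those of Mrpl44, Mrpl33, Mrpl53, Mrpl18, Mrpl27 and Mrpl16. Mrpl44 (ENSMUSG00000026248.9, chr1:79776018-79781445), a protein of the mitochondrial lineage with a fold related to ribonuclease III, stood at 14.7, 16.0 and 15.6 FPKM in MHCII-lo and at 7.71, 8.07 and 6.67 FPKM in MHCII-hi. Its change was -0.96 ± 0.07 (SE; limma adjusted p = 2.56e-05), 2.06-fold lower by mean level. Mrpl33 (chr5:31596935-31664384) stood at 10.7, 10.3 and 10.9 FPKM and at 5.36, 4.63 and 5.39 FPKM (-0.93 ± 0.06, SE; limma adjusted p = 1.38e-05). For both genes the libraries of a group lay close together and the groups far apart. Mrpl53 was the lowest of the Mrpl genes, at 2.33, 2.09 and 2.01 FPKM in MHCII-lo and 0.970, 0.700 and 0.480 FPKM in MHCII-hi. The ratio of its mean levels was 0.334, the smallest of all 78 members, while its change on the log2(FPKM + 1) scale, which understates low genes, was -0.88 ± 0.12 (SE; limma adjusted p = 0.000526).

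Mrpl18 (ENSMUSG00000057388.9, chr17:12911349-12916345), the homolog of a bacterial protein that binds the small ribosomal RNA of the large subunit, was the most abundant member. It stood at 43.6, 45.9 and 45.1 FPKM in MHCII-lo and at 24.7, 27.6 and 25.4 FPKM in MHCII-hi, with no overlap (-0.77 ± 0.04, SE; limma adjusted p = 9.82e-06). Mrpl27 and Mrpl16 are homologs of bacterial proteins that lie near the peptidyl transferase centre, where peptide bonds form. Mrpl27 averaged 14.2 ± 1.31 FPKM in MHCII-lo, against 7.91 ± 0.241 in MHCII-hi (-0.77 ± 0.07, SE; limma adjusted p = 6.19e-05). Mrpl16 averaged 7.78 ± 0.101 and 4.20 ± 0.133 FPKM (-0.76 ± 0.04, SE; limma adjusted p = 4.96e-06). Both were lower in every MHCII-hi library than in any MHCII-lo library. Mrpl44, Mrpl33, Mrpl53, Mrpl18 and Mrpl27 each overlap a gene on the opposite strand, and the use of strand in counting is not stated. Mrpl33 and Mrpl53 also overlap the predicted genes Gm43809 and Gm42688, respectively, on their own strand.

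Mrpl12, the stalk protein that recruits translation factors, was the third most abundant Mrpl gene. It stood at 29.8, 29.4 and 29.4 FPKM in MHCII-lo and at 21.3, 18.9 and 19.0 FPKM in MHCII-hi, with no overlap (-0.56 ± 0.05, SE; limma adjusted p = 6.31e-05). Mrpl58, the peptidyl-tRNA hydrolase that frees stalled ribosomes, averaged 6.21 ± 0.0569 and 4.26 ± 0.519 FPKM (-0.46 ± 0.07, SE; limma adjusted p = 0.00125). Mrpl24 stood at 33.5, 30.9 and 31.1 FPKM and at 28.5, 30.1 and 29.3 FPKM, so that it ranked above Mrpl18 in MHCII-hi and below it in MHCII-lo. Its change of -0.12 ± 0.04 (SE; limma adjusted p = 0.0339) was the call that failed most often under other settings, for example with an adjusted p of 0.626 after median-of-ratios scaling and of 0.0761 without MHCII-lo replicate 1 in limma.

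A few large subunit genes had estimates near 0. Mrpl38 averaged 7.35 ± 0.235 FPKM in MHCII-lo, against 7.40 ± 0.685 in MHCII-hi, and Mrpl32, whose product is matured by a mitochondrial inner membrane protease before assembly, averaged 5.41 ± 0.221 and 5.47 ± 0.156 FPKM. Mrpl42 averaged 9.40 ± 0.513 and 9.69 ± 0.594 FPKM. The changes of these 3 genes were 0.01, 0.01 and 0.04, with overlapping groups, and none passed (limma adjusted p = 0.931, 0.805 and 0.559). Mrpl4 and Mrpl40 were picked out after their values were seen, as the members with the highest changes. Mrpl4, the relative of a bacterial protein at the peptide exit tunnel, stood at 11.6, 12.4 and 12.2 FPKM and at 12.8, 12.5 and 12.9 FPKM (0.07 ± 0.03, SE; limma adjusted p = 0.112). Mrpl40 stood at 15.3, 13.5 and 14.5 FPKM and at 16.5, 14.9 and 17.5 FPKM, with overlap (0.17 ± 0.07, SE; limma adjusted p = 0.0613). Neither passed, but both passed as higher after median-of-ratios scaling (limma adjusted p = 0.00626 for Mrpl4 and 0.0121 for Mrpl40) and after quantile normalization (0.0331 and 0.0265). The other Mrpl genes past the test had changes between -0.72 (Mrpl9) and -0.11 (Mrpl10), and Mrpl14 and Mrpl37 did not pass.

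Grouped by the current family names, which do not follow descent in every case (Mrps18a and Mrps18b count as mitochondrial), 41 of 46 members with a bacterial family name were lower, with a median of -0.46 and a ratio of summed FPKM of 0.688. Of the 32 members named as specific to mitochondria, Mrps36 included, 25 were lower, with a median of -0.34 and a ratio of 0.766. With subunits placed as in the structure, the ratio among bacterial families was 0.702 for the large and 0.660 for the small subunit, the latter 0.705 without Mrps18c, and the medians were -0.46 and -0.45. Among mitochondrial families the ratios were 0.794 and 0.722 and the medians -0.33 and -0.33. The difference between the classes was not tested.

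Short transcripts make up much of the family. The shorter 39 members (median transcript length 418 to 855 bases) had a median change of -0.49 and the longer 39 (859 to 4278 bases) one of -0.33, with 33 lower in each. Across the 78 genes, which share the same 6 libraries, the change and the log2 length had a Pearson's r of 0.18, with 0.37 over the 29 small subunit and 0.05 over the 49 large subunit genes. Among other tested genes with a known length, immunoglobulin segments left out, the median change ran from -0.21 in the shortest of 10 length bins to 0.02 in the longest. Over the 4004 other tested genes in the middle range of the members' lengths, immunoglobulin segments kept, the median was -0.13, and 46.2% were lower. Of the members, 36 overlap no other annotated gene and 28 of these were lower; 42 overlap one and 38 were lower; the median was -0.44 in both.

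**Figure D4:**
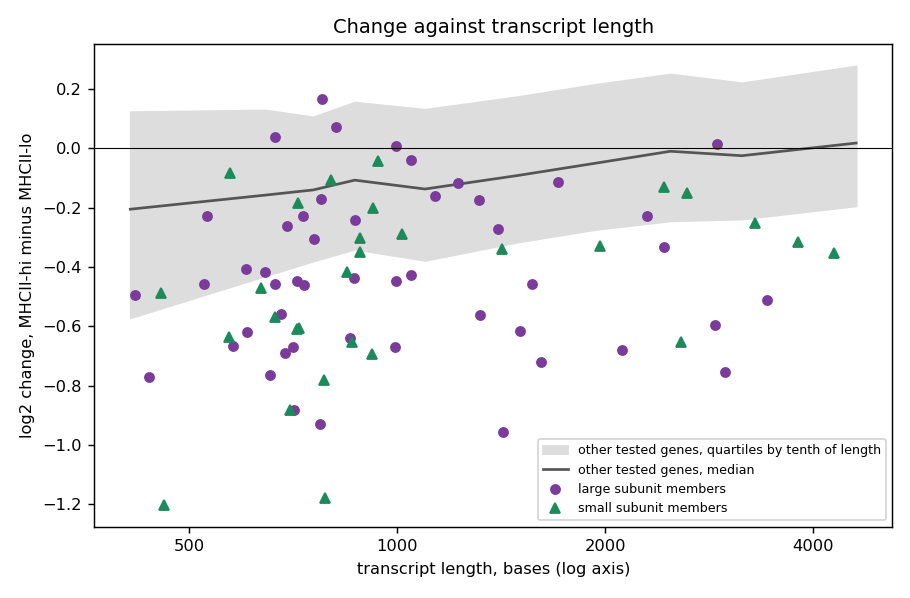
Change of each member (circles, large subunit; triangles, small subunit) against its median transcript length in bases on a log axis. The line and band are the median and quartiles of the other tested genes by length, in 10 bins, with immunoglobulin segments left out. The other genes run from a median of -0.21 in the shortest bin to 0.02 in the longest; most members lie below that line.

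Promoters were read because most members moved together. RefSeq windows (GRCm38.p6, 250 bases before to 50 after the start) were matched for 69 of the 78 genes and searched on both strands for 3 motifs of factors known for nuclear genes of mitochondrial proteins. These were CCGGAAG for the ETS family, to which GABPA belongs, the NRF1 consensus, and AANATGGCG for YY1 (N is any base). The ETS letters were in 25 of the 69 windows (36.2%), against 20.0% of 8431 other tested genes and 9.12% of all windows. The ETS letters stood in 14 of 43 large subunit and 11 of 26 small subunit windows. The YY1 letters were in 11 (15.9%, against 5.98% of other tested genes) and the NRF1 consensus in 6 (8.70%, against 5.57%), all 6 in the large subunit. Members with the ETS letters had a median change of -0.56, and 24 of 25 were lower; members without them had a median of -0.34, and 36 of 44 were lower. The other motifs had the opposite order. Members with the YY1 letters had a median of -0.35 (8 of 11 lower) and those without -0.45 (52 of 58), and members with the NRF1 consensus had a median of -0.29 (5 of 6 lower) and those without -0.45 (55 of 63). None of these differences was tested. A match is a stretch of letters and not evidence of binding. A single window was searched per gene, and some lie far from the start in GENCODE, such as those of Mrpl33 and Mrps24.

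The 6 upstream stretches shown include those of both members with the largest falls on the log2 scale. Also shown are a member with the ETS letters, a member with the NRF1 consensus, and Mrps18a beside its relative Mrps18c. The last is from a pair of members transcribed away from each other. Only the longest upstream run outside annotated exons is printed, 5′ to 3′ on the strand of the named gene. Matched motifs are in capitals (CTTCCGG is the ETS match read on the other strand). Matches elsewhere in a window are not shown, such as the YY1 letters in the windows of Mrps11 and Mrps18a. Mrps18c is shown over chr5:100798599-100798626, Mrps14 over chr1:160194965-160195214, Mrpl34 over chr8:71464676-71464925, Mrpl9 over chr3:94443086-94443317, Mrps18a over chr17:46110754-46110985 and Mrps11 over chr7:78783090-78783118.
Mrps18c: gtgaCTTCCGGcccgggaagcgcgggaa
Mrps14: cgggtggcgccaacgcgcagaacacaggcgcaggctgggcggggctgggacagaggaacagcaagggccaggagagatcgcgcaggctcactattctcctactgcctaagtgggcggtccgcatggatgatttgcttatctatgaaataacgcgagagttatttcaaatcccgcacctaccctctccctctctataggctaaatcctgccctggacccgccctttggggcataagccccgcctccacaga
Mrpl34: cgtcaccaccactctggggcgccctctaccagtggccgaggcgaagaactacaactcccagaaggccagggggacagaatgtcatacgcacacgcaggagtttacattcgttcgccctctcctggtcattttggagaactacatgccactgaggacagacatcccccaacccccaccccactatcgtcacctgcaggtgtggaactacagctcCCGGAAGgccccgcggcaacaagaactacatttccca
Mrpl9: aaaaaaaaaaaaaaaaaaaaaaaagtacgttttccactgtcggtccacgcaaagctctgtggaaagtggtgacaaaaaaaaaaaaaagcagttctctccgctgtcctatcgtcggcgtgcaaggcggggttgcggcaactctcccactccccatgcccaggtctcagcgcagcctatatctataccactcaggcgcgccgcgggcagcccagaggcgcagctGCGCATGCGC
Mrps18a: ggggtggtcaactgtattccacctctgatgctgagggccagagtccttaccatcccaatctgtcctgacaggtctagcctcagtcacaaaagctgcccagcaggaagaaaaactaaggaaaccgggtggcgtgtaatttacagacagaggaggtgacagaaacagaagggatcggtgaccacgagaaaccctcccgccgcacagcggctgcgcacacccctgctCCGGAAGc
Mrps11: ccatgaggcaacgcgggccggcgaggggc

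Mrps18c, Mrps18a and Mrps18b all hold the ETS letters in their windows, with changes of -1.20, -0.35 and -0.11. These 3 were picked as relatives, and the relation between the letters and the change was not tested. Mrps14, with nearly the largest fall, held none of the 3 motifs in its window. Mrpl34 and Mrpl9, chosen for their promoters after their values were seen, averaged 24.7 ± 1.64 and 16.9 ± 0.937 FPKM in MHCII-lo and 15.7 ± 1.33 and 9.85 ± 0.606 FPKM in MHCII-hi. Mrps11 and Mrpl46, chosen in the same way, lie on opposite strands. By the RefSeq windows their starts flank the 29 bases shown, while in GENCODE their spans overlap. Mrpl46 averaged 9.53 ± 0.214 and 8.42 ± 0.195 FPKM (-0.16 ± 0.03, SE; limma adjusted p = 0.00528, and no call after median-of-ratios scaling). Mrps11 averaged 6.70 ± 0.193 and 5.73 ± 0.820 FPKM (-0.20 ± 0.09, SE; limma adjusted p = 0.0802; 0.0130 without MHCII-hi replicate 3). Both changes lay nearer to 0 than the median of their subunit.

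The rest of the mitochondrial translation machinery gives the setting. Of 7 mitoribosomal proteins with other symbols, 5 were listed, and all 5 were lower (median -0.53), beside 40.5% of all tested genes. Chchd1 went from 27.0 ± 2.27 to 12.6 ± 0.316 FPKM (-1.04 ± 0.06, SE), and Aurkaip1 from 23.8 ± 1.12 to 15.7 ± 0.452 FPKM (-0.57 ± 0.04, SE). Dap3, a GTP-binding protein of the small subunit, went from 10.4 ± 0.0819 to 6.93 ± 0.230 FPKM (-0.53 ± 0.04, SE). Ptcd3 (-0.38) and Gadd45gip1 (-0.23) had smaller falls.

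Of the factors that assemble the mitoribosome, 16 of 27 tested (59.3%) were lower and 0 higher (median -0.25). Over all tested genes, 40.5% were lower and 27.2% higher, with a median of -0.08. The largest falls were those of Rcc1l (5.30 ± 0.485 to 2.42 ± 0.363 FPKM), C1qbp (40.3 ± 1.52 to 24.1 ± 0.910 FPKM) and the ribosomal RNA methyltransferase Mrm2 (3.40 ± 0.136 to 1.87 ± 0.0586 FPKM). Of 17 translation and mRNA-handling factors, 12 (70.6%) were lower and 1 higher (median -0.27). Slirp and Lrpprc, partners that stabilise mitochondrial mRNAs, changed by -1.20 ± 0.10 and -0.60 ± 0.04 (SE), and the elongation factor Tsfm by -0.80 ± 0.05 (SE). The factor that was higher was Oxa1l, which inserts the new chains into the inner membrane (0.11 ± 0.04, SE; limma adjusted p = 0.0368). Of 17 mitochondrial aminoacyl-tRNA synthetases, 11 (64.7%) were lower and 0 higher (median -0.25). Lars2 stood at 20.6 ± 0.305 and 5.74 ± 0.289 FPKM (-1.68 ± 0.04, SE), and Nars2 and Yars2 changed by -0.48 and -0.47.

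Of 17 tested regulators of mitochondrial transcription and biogenesis, 6 were lower and 1 higher, with a median of -0.07, close to the 40.5% lower and the median of -0.08 over all tested genes. Tfam, which packages mitochondrial DNA and starts its transcription, went from 10.4 ± 0.215 to 6.02 ± 0.211 FPKM (-0.70 ± 0.04, SE), and Tefm and Ssbp1 changed by -0.39 and -0.36. Myc was higher, at 24.9 ± 0.947 and 35.8 ± 1.25 FPKM (0.51 ± 0.04, SE; limma adjusted p = 3.36e-05). Gabpa, the ETS factor named above, averaged 18.0 ± 1.11 and 17.0 ± 0.530 FPKM and missed the threshold (limma adjusted p = 0.198), and Nrf1 averaged 5.27 ± 0.146 and 4.10 ± 0.165 FPKM (-0.30 ± 0.04, SE; limma adjusted p = 0.000909). Yy1 averaged 27.4 ± 0.429 and 24.6 ± 0.804 FPKM (-0.15 ± 0.03, SE; limma adjusted p = 0.00427). These 3 factors were added for the promoter motifs after their values were seen.

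The RNAs made inside the organelle went the other way. The small subunit's ribosomal RNA, mt-Rnr1, stood at 170, 165 and 174 FPKM in MHCII-lo and at 239, 248 and 230 FPKM in MHCII-hi (0.49 ± 0.03, SE; limma adjusted p = 1.7e-05). The large subunit's ribosomal RNA, mt-Rnr2, stood at 168, 174 and 172 FPKM and at 258, 250 and 251 FPKM (0.56 ± 0.02, SE; limma adjusted p = 1.31e-06). All 13 mitochondrially encoded protein genes were higher, with a median of 0.62, beside 27.2% higher over all tested genes. Of these, mt-Atp8 changed by 1.10, mt-Nd1 by 0.74 and mt-Atp6 by 0.71. The libraries were made from poly(A) RNA, so the values of these RNAs describe the captured part. Most mRNAs of mitoribosomal proteins were thus lower in MHCII-hi, while both ribosomal RNAs and the 13 mitochondrial genes whose mRNAs the mitoribosome translates were higher.

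Cytosolic ribosomal protein genes also fell. Of 48 tested large subunit genes 45 were lower and 1 higher, with a median of -0.64 and a ratio of summed FPKM of 0.658. Of 33 small subunit genes 29 were lower and 2 higher, with a median of -0.86 and a ratio of 0.608. Over all tested genes 40.5% were lower and 27.2% higher. No test compared these families with the mitoribosomal genes.

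**Figure D5:**
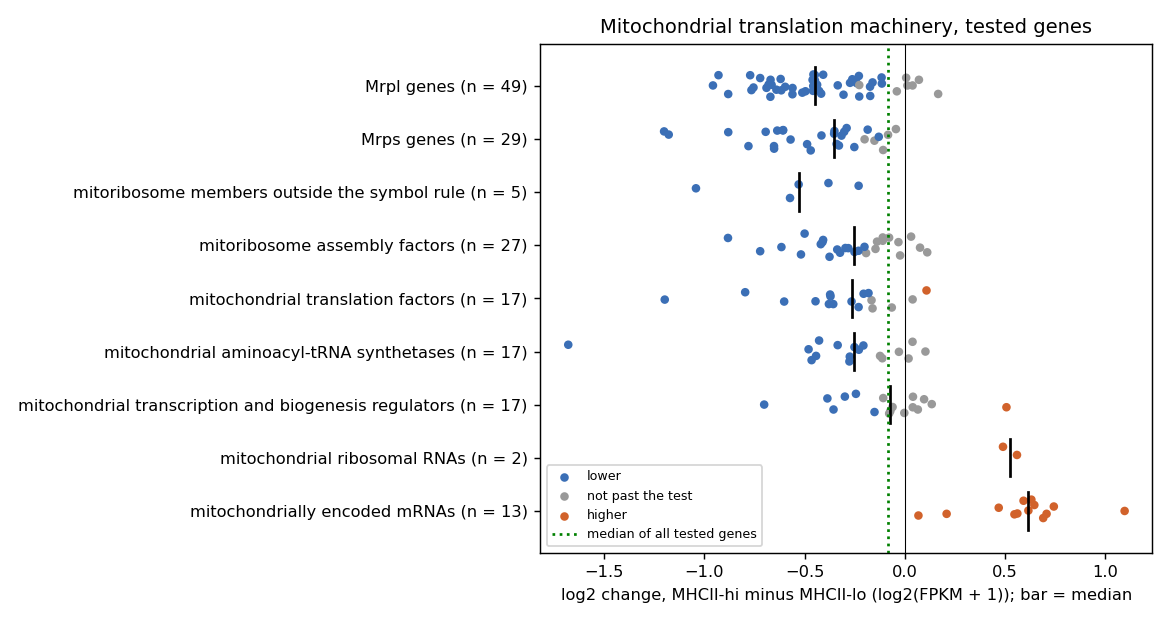
Change of each tested gene of the mitochondrial translation machinery on the log2(FPKM + 1) scale, by group, with a bar at each group's median and a dotted line at the median of all tested genes (-0.08). The nuclear-encoded protein groups have medians from -0.53 to -0.07, and the ribosomal RNAs and mitochondrially encoded mRNAs lie to the right of 0.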

How the data were processed

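The deposited files give 1 value per gene symbol for each of 6 libraries, with 2 decimals and no unit in the header. They were read as FPKM made by the authors, because StringTie is among the tools in the submitters' processing notes (with fastp and HISAT2, versions not given; builds GRCm38 and mm10). Libraries were made with a stranded poly(A) kit, per the labels' protocols. FPKM is scaled to library size and transcript length, so when abundant transcripts rise, other values sink. Depth is unknown and limits the precision to the spread between libraries. The MHCII-lo libraries summed to 306496 ± 515 FPKM and the MHCII-hi libraries to 333432 ± 92.5 (SD, n = 3).

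Groups came from the labelled cell subtype. The 12295 genes averaging 1 FPKM or more were compared on log2(FPKM + 1) in limma 3.58.1 under R 4.3.3 (two-sided, empirical Bayes with trend), with a call at a Benjamini-Hochberg adjusted p under 0.05. Count-based tests were not run, since the values are not counts, and no list was tested as a set. For 67 repeated symbols the highest row kept the symbol; no member was repeated. Identifiers, coordinates, lengths and overlaps came from GENCODE M21 (GRCm38), which matched all 78 members, and promoters from RefSeq. The 5 Mrpl and Mrps pseudogene symbols listed are not members; reads shared with them could affect Mrpl23, Mrpl27, Mrpl48 and Mrps36. The test was also run on simulated data with independent noise and few changed genes. That setting differs from these data, where most tested genes were called, so no conclusion is drawn from it.

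The members, lists and rules were chosen with earlier results of these data known. The rule for named genes took, per subunit and direction, the 6 largest changes past the threshold, the 3 highest levels and the 3 smallest changes that failed. It always took Mrps18a, Mrps18b, Mrps18c, Mrps30, Mrps36, Mrpl12 and Mrpl58, and per related list up to 3 changes in each direction. Other genes are named to complete a count, a range or a list, or were picked with their values in view. The alternatives tried were a pseudocount of 0.1 or 0.01, testing every gene or those averaging 5 FPKM or more, median-of-ratios scaling, quantile normalization, rescaling without immunoglobulin segments, removal of length and GC trends, no mean-variance trend, the replicate number as a block, each library left out, and subunits as in the structure. Members that overlap no other gene, and sums without Mrps18c, were added after the data were seen. Python 3.11.15, pandas 2.3.3, numpy 2.4.6 and matplotlib 3.10.9 were used.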

Additional observations from a re-analysis of the deposited data

How the results depend on the processing

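Of the 66 members called lower, 54 passed in the same direction under every alternative in which they were tested, and 12 lost the call under at least 1 (Mrpl10, Mrpl17, Mrpl23, Mrpl24, Mrpl41, Mrpl46, Mrpl49, Mrps2, Mrps5, Mrps6, Mrps10 and Mrps27); the cause was not tested. Of the 12 members not called, 4 passed under at least 1 alternative (Mrpl4 and Mrpl40 as higher, Mrpl14 and Mrps11 as lower). The Mrpl median changed to -0.52 with a pseudocount of 0.1, -0.52 with 0.01, -0.37 after median-of-ratios scaling and -0.41 after removal of the length and GC trends. Under the same settings the Mrps median was -0.44, -0.46, -0.27 and -0.41. The ratio of summed FPKM changed for the Mrpl genes to 0.739 with a mean of at least 5 FPKM, 0.783 after median-of-ratios scaling, 0.750 after quantile normalization and 0.747 after removal of the length and GC trends. For the Mrps genes the ratio was 0.726 after median-of-ratios scaling. Over the members overlapping no other gene, fewer by construction, 17 of 22 Mrpl and 11 of 14 Mrps genes were lower, with ratios of 0.752 and 0.708. The Mrpl genes called higher numbered 2 after median-of-ratios scaling, 2 after quantile normalization and 1 after removal of the length and GC trends. Over all genes 2210 were higher with a mean of at least 5 FPKM, since fewer genes were tested.

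Leaving out each replicate in turn gave 41 to 43 Mrpl and 22 to 25 Mrps genes lower, 0 to 1 Mrpl genes higher (Mrpl40, without MHCII-lo replicate 1 and without MHCII-hi replicate 2) and Mrpl medians of -0.46 to -0.41. With the replicate number as a block, 1 Mrpl gene was higher (Mrpl40, limma adjusted p = 0.0218), 41 Mrpl genes were lower (Mrpl24 lost its call) and 24 Mrps genes were lower. Same-numbered libraries had correlations of their deviations from the group means of 0.0626, 0.0019 and 0.0804. Pairs with different numbers had correlations from -0.0949 to 0.0251. The labels do not say whether same-numbered libraries share an origin, and these values cannot decide it. Uncalled changes near 0 changed sign. Mrpl37 had 0.045 and Mrps15 0.047 after median-of-ratios scaling, and Mrpl37 had 0.044 and Mrpl38 -0.020 after removal of the length and GC trends. Leaving out 1 library at a time gave -0.051 to 0.067 for Mrpl38, -0.013 to 0.037 for Mrpl32 and -0.0065 to 0.066 for Mrpl42. The unknown depth limits what can be said of members near 1 FPKM, such as Mrpl53 and Mrps10.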
